A study of Mus musculus with 12 samples.

Results

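The 9 genes followed here encode transcription factors of cortical layer identity and were measured in primary mouse cortical neurons: Fezf2, Bcl11b, Tbr1, Sox5, Tle4 and Foxp2, which mark deep-layer projection neurons, and Cux1, Cux2 and Rorb, which mark upper-layer neurons. They were taken by gene symbol from the deposited expression table, where all 9 of the 9 symbols were found once among 51912 genes. The rule that selects them uses the symbol alone. The neurons came from cortices of C57BL/6J embryos at E17.5. They were treated soon after plating with erinacine S at 1 µg/mL, a natural product that Hericium erinaceus, an edible fungus, makes in its mycelium, or with the solvent DMSO. The 4 groups, each of 3 libraries, were erinacine S for 48 h, DMSO for 48 h, erinacine S for 16 h and DMSO for 16 h. All groups share the strain, the dissociation with trypsin, a first culture step in serum-containing medium and a serum-free B27 medium afterwards. The values are TPM, relative transcript abundances scaled for gene length and for the total of the library, so levels of different genes can be set side by side. TPM keeps no record of sequencing depth, so the depth behind each value is unknown. How many embryos or litters stand behind a library is not given in the sources used here, and the p-values measure the spread between libraries, which may in part be technical.

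Projection neurons of the cortex are born in order, deep layers first and upper layers later, and each layer keeps a characteristic set of transcription factors after its neurons leave the cell cycle. In the mouse, Fezf2 sets the identity of subcortically projecting neurons and acts upstream of Bcl11b (also called Ctip2), which guides the outgrowth of corticospinal axons. Tbr1 specifies corticothalamic neurons of the deepest layer and restrains Fezf2 there. Sox5 controls the order in which deep-layer types arise, Tle4 is a corepressor of corticothalamic neurons that works with Fezf2, and Foxp2 marks corticothalamic neurons. Cux1 and Cux2 are homeodomain factors that shape dendrites and spines of upper-layer neurons, and Rorb is a nuclear receptor of the granular input layer.

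The members are scattered over 6 chromosomes. In the deposited coordinates (GRCm38), the deep-layer genes are Fezf2 (ENSMUSG00000021743) at chr14:12341892-12345865 on the minus strand, Bcl11b (ENSMUSG00000048251) at chr12:107910403-108003602 on the minus strand, and Tbr1 (ENSMUSG00000035033) at chr2:61802930-61814114 on the plus strand. Sox5 (ENSMUSG00000041540) lies at chr6:143828425-144781977 on the minus strand, Tle4 (ENSMUSG00000024642) at chr19:14448072-14598051 on the minus strand and Foxp2 (ENSMUSG00000029563) at chr6:14901349-15441977 on the plus strand. The upper-layer genes are Cux1 (ENSMUSG00000029705) at chr5:136248135-136567490, Cux2 (ENSMUSG00000042589) at chr5:121856366-122050102 and Rorb (ENSMUSG00000036192) at chr19:18930605-19111196, all on the minus strand. They range from 3974 bp (Fezf2) to 953553 bp (Sox5) in genomic length. Genes annotated within or antisense to Sox5, Foxp2, Cux1 and Cux2 were at most at 0.534 TPM, the value of Gm15637 on the strand opposite Cux2 in its highest library.

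RefSeq promoter windows (GRCm38.p6, 250 bases before to 50 after an annotated start) were found for 8 of the 9 members. The windows of 4 members are shown, Fezf2 and Tbr1 of the deep layers and Cux1 and Cux2 of the upper layers. Their levels differed between the times in culture described below, as did that of Rorb, whose windows are not shown. Capitals mark 6-base words that belong to the factor families of the members, searched on both strands: AACAAT (SOX), AGGTGT (T-box), TGTTTA (FOX), AGGTCA (ROR) and ATCGAT (CUX).
Fezf2 promoter, chr14:12345816-12346115, minus strand: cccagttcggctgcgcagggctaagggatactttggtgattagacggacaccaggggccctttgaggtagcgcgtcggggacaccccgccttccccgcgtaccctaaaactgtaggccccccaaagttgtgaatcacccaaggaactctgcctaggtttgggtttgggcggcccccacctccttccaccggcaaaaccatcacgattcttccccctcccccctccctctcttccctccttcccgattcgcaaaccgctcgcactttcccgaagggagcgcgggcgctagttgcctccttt
Tbr1 promoter, chr2:61804203-61804502, plus strand: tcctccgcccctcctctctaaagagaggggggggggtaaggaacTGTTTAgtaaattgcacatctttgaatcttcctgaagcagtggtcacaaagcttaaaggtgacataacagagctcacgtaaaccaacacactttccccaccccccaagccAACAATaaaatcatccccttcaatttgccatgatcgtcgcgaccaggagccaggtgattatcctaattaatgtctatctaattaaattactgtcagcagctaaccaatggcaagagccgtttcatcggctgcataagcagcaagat
Cux1 promoter, chr5:136565932-136566231, minus strand: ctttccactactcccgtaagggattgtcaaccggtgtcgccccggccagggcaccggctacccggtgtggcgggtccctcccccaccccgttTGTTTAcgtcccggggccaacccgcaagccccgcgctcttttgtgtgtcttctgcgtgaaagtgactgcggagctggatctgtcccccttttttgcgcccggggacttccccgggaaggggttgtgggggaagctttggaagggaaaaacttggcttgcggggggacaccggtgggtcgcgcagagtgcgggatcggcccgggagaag
Cux2 promoter at its second annotated start, chr5:122047776-122048075, minus strand: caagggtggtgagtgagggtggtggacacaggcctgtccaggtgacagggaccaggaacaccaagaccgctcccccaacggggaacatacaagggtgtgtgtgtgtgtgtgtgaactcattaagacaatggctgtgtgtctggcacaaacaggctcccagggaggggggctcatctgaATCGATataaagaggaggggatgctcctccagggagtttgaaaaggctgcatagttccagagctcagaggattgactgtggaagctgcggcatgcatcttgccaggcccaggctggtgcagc
The Fezf2 window held none of these words. The Tbr1 window held TGTTTA beginning at position -206 from the start and AACAAT at position -96. The Cux1 window held TGTTTA at position -158, and the Cux2 window held ATCGAT at position -72, which reads the same on both strands. The window at the first Cux2 start, chr5:122049802-122050101, held none of the words and is not shown. Of the Rorb windows, that at chr19:19111147-19111446 held none and that at chr19:19001068-19001367 held TGTTTA at position -207. Among 32851 promoter windows of the same length, 13.4% held TGTTTA, 10.7% held AACAAT, 13.7% held AGGTGT, 16.3% held AGGTCA and 0.925% held ATCGAT on either strand. A match is a description of the letters and not a binding site.

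The libraries were alike in breadth, with 15219 to 15789 genes at 1 TPM or more, and the share of mitochondrially encoded genes was 5.12 to 7.32% at 48 h and 7.24 to 7.70% at 16 h. In all 12 libraries the 9 factors spanned a wide range of levels. Tbr1, Bcl11b and Cux1 were the most abundant, Cux2 came next, Tle4, Fezf2, Foxp2 and Sox5 were lower, and Rorb was lowest in every group. In erinacine S at 48 h the means ran from 176 ± 4.28 TPM for Tbr1 to 6.73 ± 1.05 TPM for Rorb (SD, n = 3), and in DMSO at 48 h from 198 ± 3.99 TPM for Cux1 to 6.53 ± 1.22 TPM for Rorb. At 16 h Tbr1 was highest in both treatments, at 229.5 ± 44.8 TPM in erinacine S and 239 ± 34.9 TPM in DMSO, and Rorb was at 4.22 ± 0.711 TPM in erinacine S and 4.05 ± 0.420 TPM in DMSO. Among genes at 1 TPM or more, Tbr1 lay between percentiles 92.8 and 96.7 of its library and Rorb between percentiles 18.9 and 28.8. Neighbours in the order were not always separable: the ranges of Foxp2 and Sox5 overlapped in every group, and those of Tbr1, Bcl11b and Cux1 overlapped in erinacine S at 48 h. The order also differed between times. Cux1 stood above Tbr1 in every DMSO library at 48 h and below it in every library of both treatments at 16 h.

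**Figure D1:**
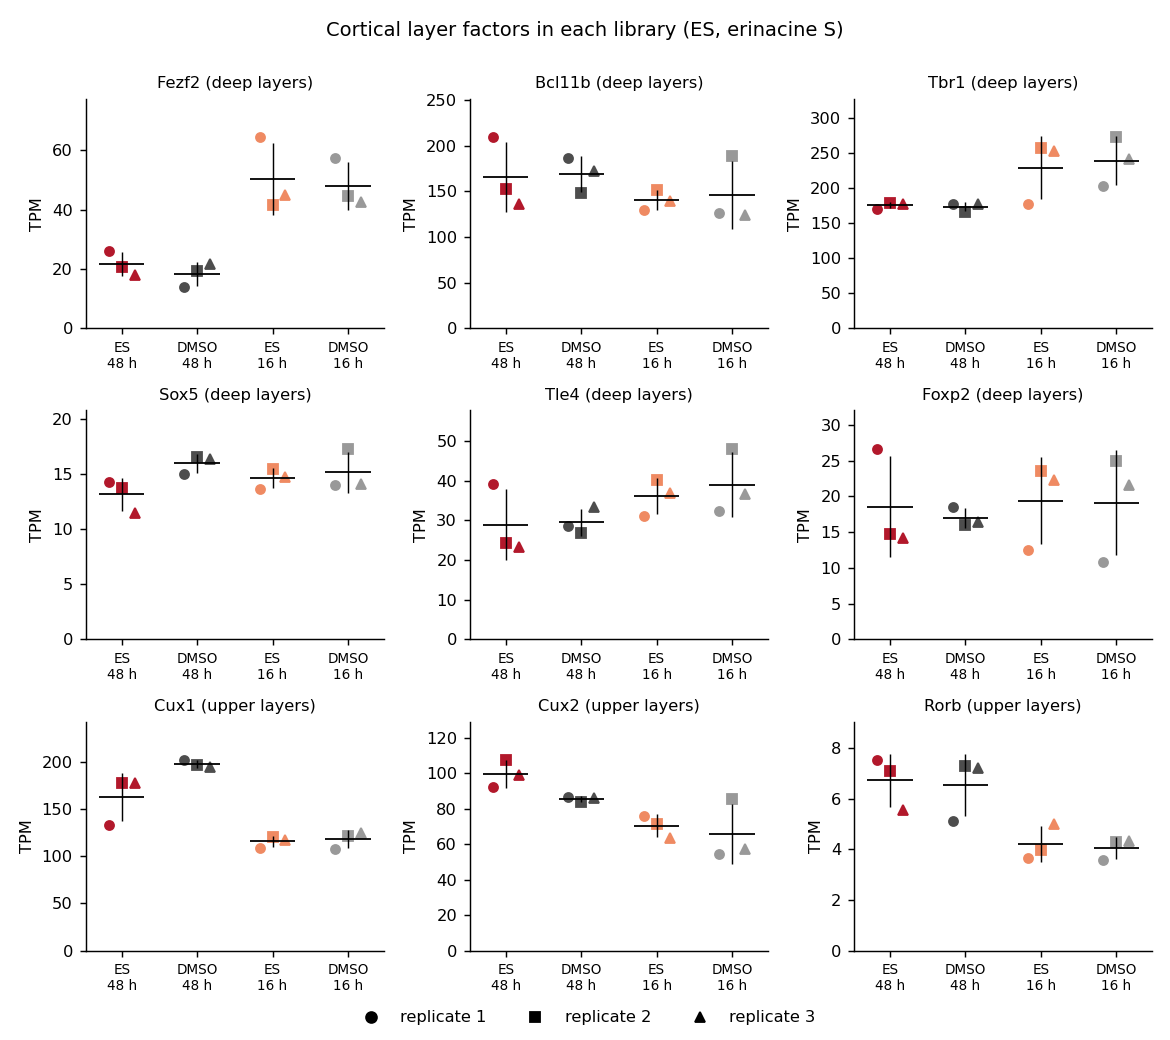
TPM of the 9 layer factors in each of the 12 libraries (points, with the shape giving the replicate number), with the group mean (horizontal line) and SD (vertical line), n = 3 libraries a group; each panel has its own axis starting at 0. Fezf2 lies between 13.8 and 26.2 TPM at 48 h and between 41.6 and 64.4 TPM at 16 h, and Cux1 lies above 130 TPM in every 48 h library.

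The largest differences among the 9 factors were between 48 h and 16 h in culture. In DMSO, where the labels differ only in time, Cux1, Cux2 and Rorb rose and Fezf2 and Tbr1 fell. These 5 of 9 members passed an adjusted p of 0.05 in limma's moderated test with Benjamini-Hochberg adjustment over 15623 genes, 55.6% of the members against 32.7% of all genes tested. By direction, 3 members were higher, against 16.1% of all genes, and 2 were lower, against 16.6%. In erinacine S, 4 of 9 members passed, 44.4% against 30.6% of all genes tested: the same 3 upper-layer factors were higher (15.1% of all genes were) and Fezf2 was lower (15.5% of all genes were). The 48 h and 16 h libraries did not overlap in 4 of 9 members in erinacine S (44.4%, against 44.9% of all genes tested) and in 4 of 9 in DMSO (44.4%, against 50.5%). The median log2 fold change over the 3 upper-layer factors was 0.49 in erinacine S and 0.57 in DMSO, and over the 6 deep-layer factors -0.25 in erinacine S and -0.23 in DMSO, where the medians of all genes tested were -0.03 in both. Fold changes are on the log2(TPM + 1) scale, which understates those of low genes such as Rorb. In bulk RNA, fewer cells of a type and less RNA per cell cannot be told apart.

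Fezf2, the determinant of subcortical projection identity, showed the largest difference of the members. It was at 26.2, 20.7 and 18.0 TPM in erinacine S and 13.8, 19.4 and 21.8 TPM in DMSO at 48 h. At 16 h it was at 64.4, 41.6 and 45.0 TPM in erinacine S and 57.4, 44.5 and 42.5 TPM in DMSO. Every 48 h library lay below every 16 h library in both treatments. The ratio of the 48 h mean to the 16 h mean was 0.430 in erinacine S and 0.381 in DMSO. Fezf2 fell by 1.17 ± 0.20 on the log2 scale in erinacine S (SE; limma adjusted p = 0.00143) and by 1.36 ± 0.20 in DMSO (adjusted p = 0.000529), and both calls were kept when any 1 of the libraries compared was left out.

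Tbr1, the factor of corticothalamic neurons, was at 171, 179 and 177 TPM in erinacine S and 178, 167 and 177 TPM in DMSO at 48 h. At 16 h it was at 178, 257 and 254 TPM in erinacine S and 203, 273 and 242 TPM in DMSO. The 48 h libraries lay close together, and the 16 h libraries were spread, with replicate 1 lowest in both treatments and, in erinacine S, within the 48 h range. Tbr1 fell by 0.45 ± 0.13 on the log2 scale in DMSO (SE; limma adjusted p = 0.0228). In erinacine S its log2 difference was -0.37 ± 0.13 (adjusted p = 0.0550). The DMSO call was lost without any 1 of the 3 DMSO 48 h libraries or without DMSO 16 h replicate 2 or 3 (adjusted p = 0.0528 to 0.0811) and with no filter on low values (0.0645). The erinacine S difference passed without erinacine S 16 h replicate 1 (-0.54, adjusted p = 0.00287), without mitochondrially encoded genes (0.0475) and with the replicate number as a block, over both times (0.0311) or within each time (0.00498).

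The other 4 deep-layer factors passed in neither treatment. Bcl11b, the corticospinal axon factor downstream of Fezf2, was at 209, 153 and 136 TPM in erinacine S and 186, 148 and 172 TPM in DMSO at 48 h, and at 130, 151.5 and 139 TPM in erinacine S and 126, 189 and 124 TPM in DMSO at 16 h. Its log2 difference was 0.22 ± 0.18 in erinacine S (limma adjusted p = 0.370) and 0.23 ± 0.18 in DMSO (adjusted p = 0.347). The time groups of Bcl11b overlapped in both treatments, and its estimates had the opposite sign to those of Fezf2. The ratio of Bcl11b to Fezf2 was 7.37 to 7.99 in erinacine S and 7.63 to 13.5 in DMSO at 48 h, against 2.02 to 3.64 in erinacine S and 2.19 to 4.25 in DMSO at 16 h, with no overlap between times. No test was made of this ratio.

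Sox5, the SOX factor that times the emergence of deep-layer types, deviated least from its own mean over the 12 libraries (0.110 on the log2 scale). It lay between 11.4 and 16.6 TPM at 48 h and between 13.6 and 17.3 TPM at 16 h. Its log2 difference with time was -0.15 ± 0.11 in erinacine S (limma adjusted p = 0.324) and 0.08 ± 0.11 in DMSO (adjusted p = 0.620). Tle4, the corepressor, averaged 28.8 ± 8.93 TPM in erinacine S and 29.5 ± 3.39 TPM in DMSO at 48 h, and 36.1 ± 4.57 TPM in erinacine S and 38.9 ± 8.20 TPM in DMSO at 16 h (SD, n = 3). Its log2 difference was -0.35 ± 0.19 in erinacine S (adjusted p = 0.193) and -0.37 ± 0.19 in DMSO (adjusted p = 0.155). Time groups overlapped for Tle4 in both treatments, and without erinacine S 48 h replicate 1 the difference in erinacine S passed (-0.58, adjusted p = 0.0206).

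Foxp2, which marks corticothalamic neurons and, outside the cortex, striatal neurons, had the largest standard error of the members. It was at 26.7, 14.7 and 14.2 TPM in erinacine S and 18.6, 16.0 and 16.4 TPM in DMSO at 48 h, and at 12.5, 23.5 and 22.3 TPM in erinacine S and 10.8, 24.9 and 21.5 TPM in DMSO at 16 h. Replicate 1 was highest in erinacine S at 48 h and lowest in both treatments at 16 h. The log2 difference of Foxp2 with time was -0.07 ± 0.31 in erinacine S (limma adjusted p = 0.881) and -0.08 ± 0.31 in DMSO (adjusted p = 0.859), with 95% intervals of -0.76 to 0.61 and -0.77 to 0.60, so a change of either sign could have gone undetected.

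All 3 upper-layer factors were higher at 48 h. Cux1, a homeodomain factor of upper-layer dendrites that is also used in many other cell types, was at 133, 178 and 178.5 TPM in erinacine S and 203, 197 and 195 TPM in DMSO at 48 h. At 16 h it was at 109, 121 and 118 TPM in erinacine S and 107.5, 122 and 125 TPM in DMSO. The times did not overlap in either treatment. Cux1 rose by 0.48 ± 0.10 on the log2 scale in erinacine S (SE; limma adjusted p = 0.00524) and by 0.74 ± 0.10 in DMSO (adjusted p = 0.00037), and both calls were kept without any 1 of the libraries compared.

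Cux2, the paralog of Cux1 that is more restricted to upper layers, was at 92.1, 108 and 98.7 TPM in erinacine S and 86.7, 83.8 and 86.0 TPM in DMSO at 48 h. At 16 h it was at 76.1, 71.6 and 63.7 TPM in erinacine S and 54.4, 85.3 and 57.1 TPM in DMSO. The times did not overlap in erinacine S, whereas in DMSO the 16 h replicate 2 lay within the 48 h range. Cux2 rose by 0.49 ± 0.14 in erinacine S (log2, SE; limma adjusted p = 0.0192) and by 0.41 ± 0.14 in DMSO (adjusted p = 0.0417). The erinacine S call was lost without erinacine S 48 h replicate 2 or erinacine S 16 h replicate 2 or 3 (adjusted p = 0.0505 to 0.0729) and with no filter on low values (0.0563). The DMSO call was lost without any 1 of the 3 DMSO 48 h libraries or DMSO 16 h replicate 1 or 3 (0.0814 to 0.153), with no filter (0.103) and with a fit of the compared libraries alone (0.0747).

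Rorb, the nuclear receptor of the input layer, was at 7.54, 7.10 and 5.54 TPM in erinacine S and 5.13, 7.28 and 7.20 TPM in DMSO at 48 h. At 16 h it was at 3.66, 3.97 and 5.02 TPM in erinacine S and 3.57, 4.28 and 4.32 TPM in DMSO. The times did not overlap in either treatment. Rorb rose by 0.57 ± 0.16 in both treatments (log2, SE; limma adjusted p = 0.0178 in erinacine S and 0.0169 in DMSO). Those calls were lost without erinacine S 48 h replicate 1 or 2 or erinacine S 16 h replicate 1 or 2 (adjusted p = 0.0538 to 0.0629), and without DMSO 48 h replicate 2 or 3 or DMSO 16 h replicate 1 (0.0585 to 0.0669).

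**Figure D2:**
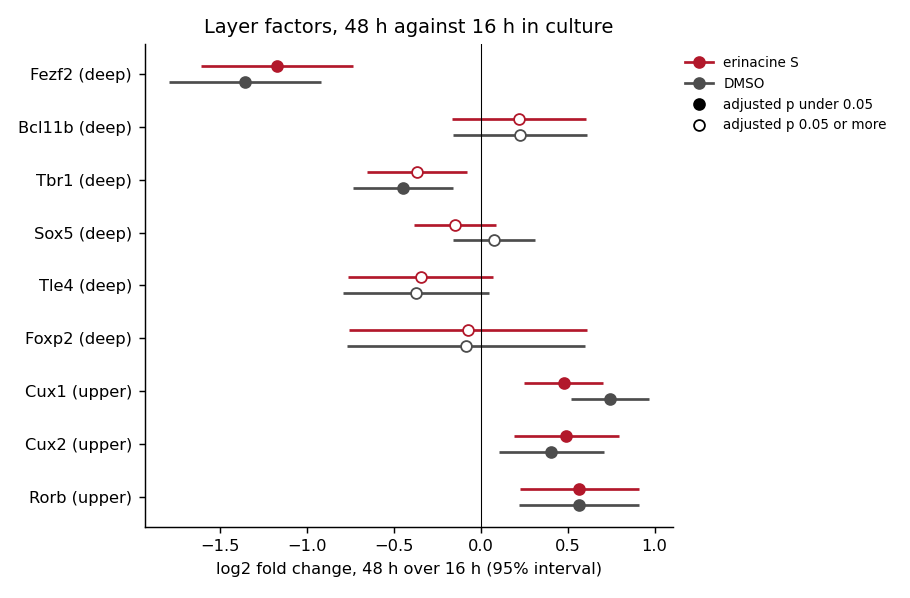
Log2 fold change of each factor at 48 h over 16 h (x axis, log2(TPM + 1) scale) in erinacine S (red) and DMSO (grey), with 95% intervals; filled points have an adjusted p under 0.05 in limma. Fezf2 lies furthest below 0 and Cux1, Cux2 and Rorb lie above 0 in both treatments, while the 4 deep-layer factors other than Fezf2 and Tbr1 have open points.

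Ratios of an upper-layer to a deep-layer factor within a library also separated the times. Cux2 over Fezf2 was 3.52 to 5.47 in erinacine S and 3.94 to 6.28 in DMSO at 48 h, against 1.18 to 1.72 in erinacine S and 0.947 to 1.92 in DMSO at 16 h. Cux1 over Tbr1 was 0.780 to 1.01 in erinacine S and 1.10 to 1.18 in DMSO at 48 h, against 0.464 to 0.615 in erinacine S and 0.448 to 0.530 in DMSO at 16 h. Neither ratio overlapped between the times in either treatment. Ratios between deep-layer factors did not overlap either, so this was not particular to upper-over-deep pairs. In erinacine S, Tbr1 over Fezf2 was 6.52 to 9.83 at 48 h and 2.76 to 6.17 at 16 h. In DMSO it was 8.13 to 12.9 and 3.54 to 6.13. Tbr1 over Bcl11b was 0.816 to 1.305 at 48 h and 1.369 to 1.819 at 16 h in erinacine S. In DMSO it was 0.954 to 1.13 and 1.44 to 1.95. All these ratios are descriptions and follow from the single-gene values above.

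Other genes of the same layers did not all move as the factors did. Counts are of genes that passed the adjusted threshold. Of 11 other upper-layer and callosal genes, 6 rose and none fell in DMSO (median log2 fold change 0.41). In erinacine S 4 rose and none fell (median 0.23). Among all genes tested, 16.1% rose and 16.6% fell in DMSO, and 15.1% rose and 15.5% fell in erinacine S. Rasgrf2, an exchange factor of upper-layer neurons, rose by 2.47 ± 0.14 in erinacine S (limma adjusted p = 1.88e-06) and 2.34 ± 0.14 in DMSO (adjusted p = 2.46e-06). Plxnd1, a semaphorin receptor of callosal neurons, rose by 1.81 ± 0.18 in erinacine S and 1.94 ± 0.18 in DMSO, and Inhba, an activin subunit, by 1.11 ± 0.12 in erinacine S and 1.28 ± 0.12 in DMSO. Rasgrf2, Plxnd1 and Inhba kept their calls without any 1 library.

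Of 16 other deep-layer genes, 3 rose and 2 fell in DMSO (median 0.28), and 4 rose and 1 fell in erinacine S (median 0.13). The list was called about as often as all genes tested, of which 32.7% were called in DMSO and 30.6% in erinacine S. Pcp4, a calmodulin-binding peptide of corticospinal neurons, rose by 1.30 ± 0.18 in erinacine S (limma adjusted p = 0.000444) and 1.65 ± 0.18 in DMSO (adjusted p = 9.42e-05). Rprm, a cell cycle inhibitor, rose by 0.69 ± 0.07 in erinacine S and 0.62 ± 0.07 in DMSO, and Ldb2, a LIM-domain cofactor, rose by 1.15 ± 0.21 in DMSO (adjusted p = 0.00179). Id2, an inhibitor of helix-loop-helix factors, fell by 0.85 ± 0.14 in erinacine S (limma adjusted p = 0.000986). Both went the same way in the other treatment. Ldb2 averaged 80.1 TPM at 48 h and 48.75 TPM at 16 h in erinacine S, and Id2 315.5 and 515.6 TPM in DMSO.

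Of 15 genes of all projection neurons, 1 rose and 5 fell in each treatment (medians -0.26 in erinacine S and -0.15 in DMSO). The shares of all genes tested were 15.1% higher and 15.5% lower in erinacine S, and 16.1% and 16.6% in DMSO. Neurod6 fell by 0.62 ± 0.09 in erinacine S and 0.65 ± 0.09 in DMSO. Of 9 genes used by all neurons, 6 rose in DMSO (median 0.47), among them the neurofilament gene Nefl by 0.91 ± 0.15.

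**Figure D3:**
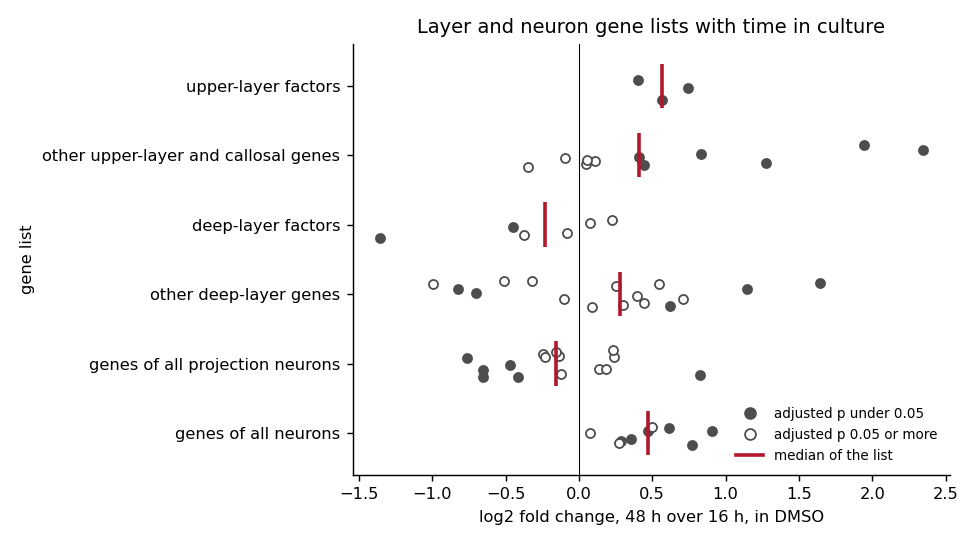
Log2 fold change at 48 h over 16 h in DMSO (x axis, log2(TPM + 1) scale) of each gene (points) in the layer and neuron lists (y axis); filled points have an adjusted p under 0.05 in limma and red bars are list medians. The upper-layer factors and the other upper-layer genes have medians of 0.57 and 0.41, and the deep-layer factors and the other deep-layer genes have medians of -0.23 and 0.28.

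Markers of other cells also differed between the times. Genes counted as higher or lower in these lists passed the adjusted threshold. Of all genes tested, 15.1% were higher and 15.5% lower in erinacine S, and 16.1% and 16.6% in DMSO. In erinacine S the 48 h ranges span a replicate 1 that stood apart in these lists. Its oligodendrocyte-lineage sum was 83.2 TPM, against 188 and 205 TPM in replicates 2 and 3. For radial glia and intermediate progenitor genes it was 355 TPM, against 999.8 and 1016 TPM, and for interneuron genes 2181 TPM, against 1069 and 1060 TPM. No gene was called for a difference between the treatments in the change with time, the interaction given below. In erinacine S the summed level of 9 oligodendrocyte-lineage genes was 83.2 to 205 TPM at 48 h against 70.5 to 101 TPM at 16 h, with 5 of 9 higher, and that of 10 astrocyte genes was 84.7 to 197 TPM against 94.5 to 117.5 TPM, with none of 8 tested called. The 14 radial glia and intermediate progenitor genes summed to 355 to 1016 TPM at 48 h against 606 to 738 TPM at 16 h (0 of 13 tested higher, 4 lower). Fabp7 alone was at 72.6 to 494 TPM at 48 h and 110 to 141.5 TPM at 16 h. Without it the list summed to 282 to 535 TPM at 48 h and 496 to 597 TPM at 16 h. The 16 dividing-cell genes summed to 297 to 549.5 TPM against 605 to 642 TPM (4 lower). The microglia list lay between 1.63 and 13.5 TPM at 48 h and between 28.4 and 48.5 TPM at 16 h, with 4 of 6 tested genes lower. The interneuron list (2 of 16 tested higher, 2 lower) summed to 1060 to 2181 TPM against 1105 to 1408 TPM, and the striatal list (3 of 16 higher, 1 lower) to 738 to 949 TPM against 736 to 920.5 TPM.

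In DMSO the summed level of 9 oligodendrocyte-lineage genes was 222 to 255 TPM at 48 h against 66.1 to 116 TPM at 16 h, with 8 of 9 higher, and that of 10 astrocyte genes was 167 to 185.5 TPM against 91.1 to 119 TPM, with 2 of 8 tested genes higher. The 14 radial glia and intermediate progenitor genes summed to 943 to 998 TPM at 48 h against 643 to 822 TPM at 16 h (4 of 13 tested higher, 3 lower). That sum was carried by Fabp7, at 374.5 to 450 TPM at 48 h against 131 to 158 TPM at 16 h: without it the list summed to 547 to 569 TPM at 48 h and 508 to 690 TPM at 16 h, which overlap. The 16 dividing-cell genes summed to 541 to 575 TPM against 618 to 677 TPM (1 lower). The 17 interneuron genes summed to 1220 to 1583 TPM against 1336 to 1531 TPM (1 of 16 tested higher, 3 lower) and the 16 striatal neuron genes to 748 to 815 TPM against 695 to 937 TPM (2 higher, 2 lower). The microglia list lay between 22.9 and 32.4 TPM at 48 h and between 26.8 and 50.9 TPM at 16 h (1 of 6 tested lower), and the vascular list at 7.11 TPM or less. Of the defining markers of these lists, none was at 0 in all 12 libraries. The part of these cells in the differences of the layer factors was not tested.

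With erinacine S against DMSO at 48 h, none of the 9 layer factors passed the adjusted threshold. In limma, 0 of 9 were called, where 0.134% of all genes were (21 of 15623). Without replicate 1 of erinacine S at 48 h 114 genes were called. Without replicate 2 or replicate 3 of that group 13 were called, and without any 1 DMSO 48 h library 9 or 10 were. With erinacine S 16 h replicate 2 or 3 left out of the shared spread, 11 or 10 genes were called, and in a fit of the compared libraries alone 11. No member was called without any 1 of the 6 libraries compared, nor in the fit of those libraries alone. At an unadjusted p under 0.05 there were 2 members, Cux1 and Sox5, and 1400 genes in all. The estimates ran from -0.29 (Cux1) to 0.24 (Fezf2) on the log2 scale, with a member median of 0.01 and a median over all genes of 0.01. In 3 of 9 members (33.3%) the erinacine S and DMSO libraries did not overlap, against 19.3% of all genes tested.

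Cux1 was lower in all 3 erinacine S libraries (163 ± 25.9 TPM) than in all 3 DMSO libraries (198 ± 3.99 TPM; SD, n = 3), with a log2 difference of -0.29 ± 0.10 (limma adjusted p = 0.415) and a 95% interval of -0.52 to -0.07. Replicate 1 of erinacine S, at 133 TPM, lay furthest from DMSO, and without it the difference was -0.15 (adjusted p = 0.593). Sox5 averaged 13.2 ± 1.51 TPM in erinacine S and 16.0 ± 0.867 TPM in DMSO, without overlap, a log2 difference of -0.27 ± 0.11 (adjusted p = 0.501), and -0.32 without that replicate. Cux2, in contrast to its paralog, was higher in all 3 erinacine S libraries (99.5 ± 7.79 TPM) than in all 3 DMSO libraries (85.5 ± 1.54 TPM), with a log2 difference of 0.21 ± 0.14 (adjusted p = 0.686). The ratio of Cux1 to Cux2 was 1.45, 1.65 and 1.81 in erinacine S and 2.34, 2.35 and 2.27 in DMSO at 48 h, against 1.44, 1.69 and 1.85 in erinacine S and 1.98, 1.43 and 2.19 in DMSO at 16 h. These groups did not overlap at 48 h and overlapped at 16 h, and no test was made of the ratio.

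For the other 6 members the erinacine S and DMSO libraries overlapped at 48 h. The log2 differences were 0.24 ± 0.20 for Fezf2 (limma adjusted p = 0.766), 0.06 ± 0.31 for Foxp2, 0.04 ± 0.16 for Rorb, 0.01 ± 0.13 for Tbr1, -0.04 ± 0.18 for Bcl11b and -0.07 ± 0.19 for Tle4. The 95% intervals bound these differences unequally: that of Tbr1 was -0.28 to 0.30 and that of Foxp2 was -0.62 to 0.74.

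One library bears on these values. Replicate 1 of erinacine S at 48 h held the highest levels among the 48 h libraries of Fezf2, Bcl11b, Tle4, Foxp2 and Rorb and the lowest of Cux1. In it the interneuron list summed to 2181 TPM, against 1060 to 1583 TPM in the other 48 h libraries, and the striatal list to 949 TPM, against 738 to 815 TPM. The radial glia and intermediate progenitor list was at 355 TPM, against 943 to 1016 TPM, the dividing-cell list at 297 TPM, against 539 to 575 TPM, and the list of all projection neurons at 3346 TPM, against 3959 to 4191 TPM. The glial lists were lowest in it as well: astrocyte genes were at 84.7 TPM, against 167 to 197 TPM, oligodendrocyte-lineage genes at 83.2 TPM, against 188 to 255 TPM, and microglia genes at 1.63 TPM, against 11.0 to 32.4 TPM. Bcl11b and Foxp2 are also known from striatal neurons and Bcl11b from interneurons. Without this library the log2 differences at 48 h were 0.10 for Fezf2, -0.22 for Bcl11b, -0.30 for Tle4 and -0.22 for Foxp2, none of them called. The part of other cells in these values was not tested.

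Across the lists at 48 h, no layer gene was called with erinacine S. The medians were -0.12 over the 11 other upper-layer genes, -0.02 over the 16 other deep-layer genes and -0.05 over the 15 genes of all projection neurons. The other deep-layer genes summed to 1081 to 1189 TPM in erinacine S and 1264 to 1346 TPM in DMSO, without overlap. Ntng2 alone, at 184 to 303 TPM in erinacine S and 357 to 437.5 TPM in DMSO, made up most of that gap: without it the list summed to 872 to 897 TPM in erinacine S and 907 to 933 TPM in DMSO, and 7 of its 16 genes had a positive difference. The microglia list summed to 1.63 to 13.5 TPM in erinacine S and 22.9 to 32.4 TPM in DMSO. All of its 6 tested genes had a negative difference (median -1.33), and 1 was called, where 0.115% of all genes were called lower. It was the complement gene C1qc (log2 difference -1.48, limma adjusted p = 0.0413). That call was lost without erinacine S 48 h replicate 2 or 3 or any 1 DMSO 48 h library (adjusted p up to 0.228), and also with the replicate number as a block.

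**Figure D4:**
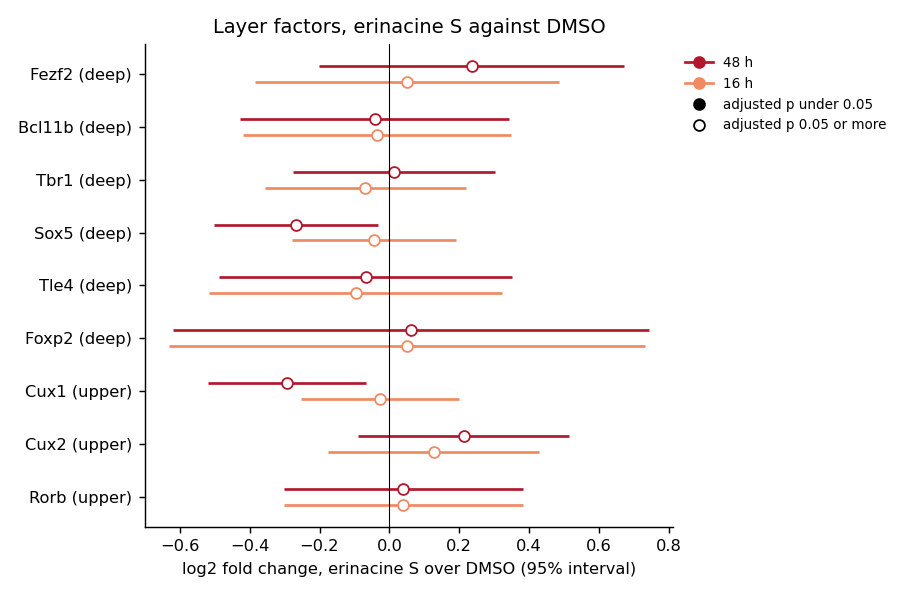
Log2 fold change of each factor in erinacine S over DMSO (x axis, log2(TPM + 1) scale) at 48 h (red) and 16 h (orange), with 95% intervals; every point is open, since no adjusted p was under 0.05 in limma. Only the 48 h intervals of Cux1 and Sox5 leave out 0.

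At 16 h the groups were closer. None of the 9 members was called in limma, where 0% of all genes were, and 0 members and 201 genes of all tested had an unadjusted p under 0.05. The log2 differences, erinacine S over DMSO, ran from -0.10 ± 0.19 for Tle4 to 0.13 ± 0.14 for Cux2, and no member's groups were free of overlap, against 4.19% of all genes tested. Cux1 averaged 116 ± 6.00 TPM in erinacine S and 118 ± 9.38 TPM in DMSO (SD, n = 3). Fezf2 averaged 50.4 ± 12.3 TPM in erinacine S and 48.1 ± 8.11 TPM in DMSO. Replicate 1 of both treatments was lowest for Tbr1, Tle4 and Foxp2 and highest for Fezf2.

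Whether the effect of erinacine S differed between the times was tested as an interaction. In limma 0 of 9 members and 0% of all genes were called, with 0 members and 432 genes at an unadjusted p under 0.05. The largest estimates, the 48 h effect minus the 16 h effect, were -0.27 ± 0.15 for Cux1, -0.22 ± 0.15 for Sox5 and 0.19 ± 0.28 for Fezf2 (log2, SE; adjusted p = 1 for each). Without replicate 1 of erinacine S at 48 h these were -0.13 for Cux1, -0.28 for Sox5 and 0.05 for Fezf2. These comparisons share libraries, so the values in both treatments and at both times stand side by side and are not independent of each other.

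**Figure D5:**
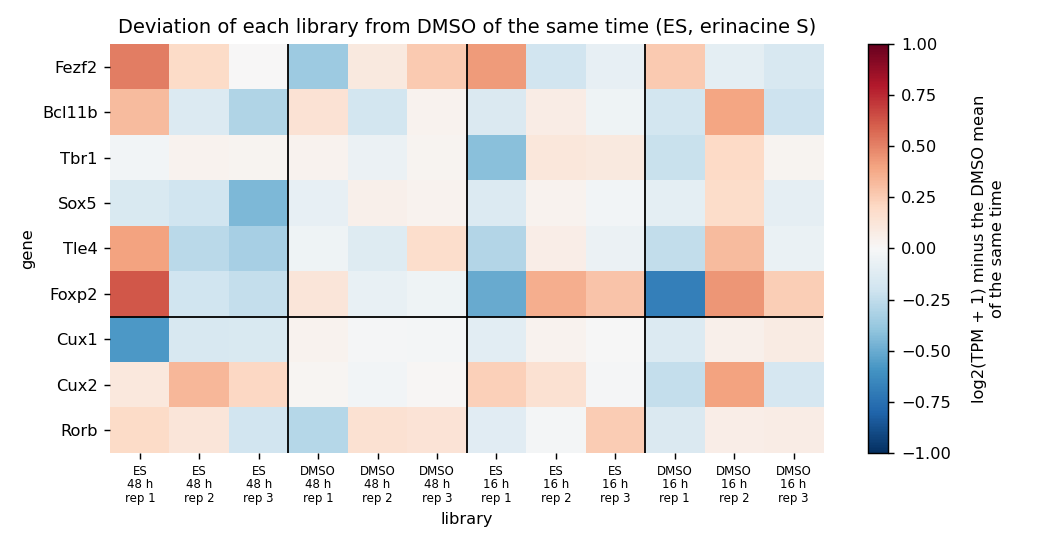
Deviation of each library (columns) from the DMSO mean of its time, in log2(TPM + 1), for each factor (rows); red is higher and blue is lower, and the horizontal line parts deep-layer from upper-layer factors. Replicate 1 of erinacine S at 48 h has the strongest red for Fezf2, Tle4 and Foxp2 and the strongest blue for Cux1 among 48 h libraries, and replicate 1 of both treatments at 16 h is blue for Tbr1, Tle4 and Foxp2.

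By the smallest mean absolute difference between centred log2(TPM + 1) values over the 12 libraries, among 12763 protein-coding genes, the nearest profile to Fezf2 was that of Ebf3 (0.163, where Fezf2 itself deviated from its mean by 0.632), a factor of Cajal-Retzius and other early-born neurons. Ebf3 fell by 1.27 ± 0.23 in erinacine S and 1.45 ± 0.23 in DMSO between the times (limma adjusted p = 0.00222 in erinacine S and 0.000898 in DMSO). Its level was low. It averaged 0.988 TPM at 48 h and 3.56 TPM at 16 h in erinacine S, and 0.561 and 3.23 TPM in DMSO. The log2(TPM + 1) scale understates its fall, so its likeness to Fezf2 is one on that scale. The nearest profile to Tbr1 was that of Slc17a6, the vesicular glutamate transporter of young projection neurons (0.0571). Bcl11b was nearest to Phlda1 (0.0723), Foxp2 to Pbx3 (0.137), Tle4 to Slc7a5 (0.0741) and Sox5 to H2afj (0.0586). Cux1 was nearest to Itpk1 (0.0652), Cux2 to the neural proteoglycan gene Ncan (0.0930) and Rorb to the receptor tyrosine kinase gene Ret (0.0890). The next nearest were Bcl6b for Fezf2, Hnrnph1 for Tbr1, Klhl11 for Bcl11b and Rrs1 for Sox5. For Foxp2 it was Syt6, of the other deep-layer list (0.143), and for Tle4 Gad2, of the interneuron list (0.0787). For Cux1, Cux2 and Rorb they were Ddah1, Pink1 and Mpp6. These likenesses are descriptions over 12 libraries of 4 groups.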

How the data were processed

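RNA of primary cortical neurons was sequenced in 12 libraries made with a strand-specific kit, per the labels' protocols. The deposited table holds TPM per gene and library, computed by the authors. Per the submitters' processing notes StringTie 2.1.3, HISAT2, SAMtools, FastQC, Trimmomatic 0.36 and bcl2fastq 2.20 were used with build GRCm38.p5; which gene annotation and counting settings were used is not given in the sources used here. A value of 0.0001 TPM stands in the table for 0. TPM keeps no depth, so no counting intervals are given.

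Genes with a mean of at least 1 TPM over the 12 libraries (15623 of 51912) entered a linear model of log2(TPM + 1), fitted in R 4.3.3 by limma 3.58.1 (1 mean per group, all 12 libraries sharing the spread, eBayes with trend, two-sided, Benjamini-Hochberg adjustment over all genes tested, threshold 0.05). The procedure was tested on simulated data. The members and the lists of other layer and cell type genes were chosen with earlier results of these data known. The text names all 9 members and the nearest expression profiles to each. It also names up to 3 genes per list and comparison with the smallest p among those past the threshold. Ntng2, Fabp7, Nr4a2 and the untested Cajal-Retzius genes were named after their values were seen. A few values are not reported here.

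Replicate numbers were checked for pairing. Across genes, deviations from the group mean were correlated between same-numbered erinacine S and DMSO libraries. They gave 0.480, 0.185 and 0.510 at 16 h, so these libraries were taken as paired. At 48 h they gave -0.0219, 0.107 and -0.192, and the libraries were not. The main model used no pairing at either time, so its SEs and adjusted p at 16 h leave it out. Within a treatment, same-numbered 48 h and 16 h libraries gave -0.182 to 0.0267, so the block over both times assumes a link not seen there. Alternatives were another pseudocount (0.1), no filter or a minimum of 5 TPM, median-ratio scaling, TPM without mitochondrially encoded genes, a replicate block, a fit of the compared libraries alone, and leaving out each library. Promoter windows came from RefSeq.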

Additional observations from a re-analysis of the deposited data

How the results depend on the processing

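No alternative other than leaving out a library turned the direction of a member result that was checked. Of 309 such values over 39 member results, 302 kept their direction and side of the threshold, 4 lost a call and 3 gained one. These results cover all 9 members in each comparison between groups. For the interaction they cover only the 3 members with the smallest p, and the others were not checked. With no filter on low values 3 of 9 members passed between the times in DMSO, since Tbr1 and Cux2 no longer did. That setting tested more genes and also refitted the model with the low genes included. With the replicate number as a block 5 members passed between the times in erinacine S, Tbr1 being added (adjusted p = 0.0311 over both times and 0.00498 within each time), and no other member call changed under either block. No median over all genes moved by more than 0.1 under another scaling.

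Without 1 library at a time, 2 to 4 members passed between the times in DMSO and 2 to 4 in erinacine S; of 252 such member values, 197 were unchanged in direction and call, 20 lost a call, 2 gained one and 33 changed sign, all in estimates that were not called. The cause was not tested. The changed signs lay in these ranges of log2 differences. For erinacine S over DMSO at 48 h they were -0.22 to 0.0894 for Bcl11b, -0.0163 to 0.0335 for Tbr1, -0.30 to 0.0636 for Tle4, -0.22 to 0.21 for Foxp2 and -0.10 to 0.16 for Rorb. At 16 h they were -0.14 to 0.18 for Fezf2, -0.14 to 0.16 for Bcl11b, -0.18 to 0.10 for Tbr1, -0.0924 to 0.0503 for Sox5, -0.22 to 0.0623 for Tle4, -0.29 to 0.33 for Foxp2, -0.0927 to 0.0153 for Cux1 and -0.0675 to 0.12 for Rorb. Between the times Foxp2 ran from -0.43 to 0.14 in DMSO and from -0.35 to 0.0833 in erinacine S. Of the other named genes, 23 of 550 values lost a call under the remaining alternatives and 52 of 420 without 1 library, and none changed sign. With 3 libraries a group and unknown depth, small differences such as those of Foxp2 could not be resolved.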

Other observations

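Of 7 genes known from Cajal-Retzius cells, the earliest-born cortical neurons, 3 could be tested between the times, and they did not move one way. Reln, which encodes the secreted guidance protein reelin, rose by 1.25 ± 0.31 on the log2 scale in erinacine S (SE; limma adjusted p = 0.0105) and 1.49 ± 0.31 in DMSO (adjusted p = 0.00387). Calb2, which encodes calretinin, rose by 0.79 in erinacine S (limma adjusted p = 0.0325) and 1.11 ± 0.25 in DMSO (adjusted p = 0.00603). Its erinacine S call was lost in 4 of 6 omissions of a compared library. Ebf3 fell in both treatments, as given above. The other 4 genes lay under the filter on low values and were not tested. In DMSO, Trp73 averaged 0.192 TPM at 48 h against 0.810 TPM at 16 h, Lhx1 0.0999 TPM against 0.467 TPM, and Lhx5 0.206 TPM against 0.800 TPM. Ebf2 was listed at 0 in every DMSO library at 48 h and averaged 0.0842 TPM at 16 h. Reln and Calb2 are also expressed by interneurons. Replicate 1 of erinacine S at 48 h had 56.3 TPM of Reln, where the other 48 h libraries had 19.1 to 38.8 TPM, and the interneuron list was also highest there. The part of interneurons in these values was not tested.

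Of 7 subplate genes 4 could be tested. In DMSO 1 was called higher and 1 lower at 48 h, where 16.1% and 16.6% of all genes tested were. Nxph4, a neurexophilin of subplate neurons, fell by 1.23 ± 0.27 in DMSO (limma adjusted p = 0.00546). In erinacine S its log2 difference was -0.91 (limma adjusted p = 0.0253), a call lost in 4 of 6 omissions of a compared library. Ctgf, a secreted matrix-associated protein, rose by 1.26 ± 0.35 in DMSO (limma adjusted p = 0.0161). That call was lost without DMSO 48 h replicate 2 or DMSO 16 h replicate 3 (adjusted p up to 0.0559). It was also lost with no filter on low values. The list summed to 28.7 to 33.8 TPM at 48 h and 25.7 to 29.3 TPM at 16 h in DMSO. With erinacine S against DMSO at 48 h none of the subplate or Cajal-Retzius genes passed in limma. The subplate list then summed to 20.1 to 25.3 TPM in erinacine S and 28.7 to 33.8 TPM in DMSO, without overlap. Its median log2 difference was -0.27. Most of that gap lay in Ctgf, which averaged 6.46 TPM in erinacine S and 11.2 TPM in DMSO, and Nr4a2, at 12.25 and 16.25 TPM. The remaining genes of the list averaged 1.56 TPM or less, and Nxph4 went the other way, at 1.56 TPM in erinacine S and 1.21 TPM in DMSO.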
